A study of Mus musculus with 8 samples.

Results

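The citrate cycle enzymes described here are the 9 genes Cs, Idh3a, Idh3b, Idh3g, Ogdh, Suclg1, Sucla2, Fh1 and Mdh2. They were read by every probe set to which the platform annotation gives exactly 1 gene from this list. That rule found 21 of the 45101 probe sets of an Affymetrix mouse genome array, and every member had at least 1. The annotation names 18193 genes through such probe sets, of which 11662 had a kept one. A filter on dim signals kept 17 of the 21, with 22519 kept over the whole array. The mice were males, called diabetic in the study's title and 8 weeks old per the labels, and the strain is not given in the sources used here. The 4 NBC mice (numbers 5, 9, 11 and 13) were gavaged with niacin-bound chromium, a chromium supplement that carries niacin, dissolved in water. The dose was 10 mg/kg. The 4 placebo mice (numbers 6, 8, 10 and 14) received water only. Both groups were dosed for 10 weeks on 5 days per week, and the subcutaneous fat of each mouse gave 1 array of biotin-labelled total RNA. Because dosing lasted 10 weeks, the 8 weeks cannot be the age at which the fat was taken.

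The citrate cycle runs in the mitochondrial matrix. It joins acetyl-CoA to oxaloacetate, oxidises the resulting citrate in steps that release carbon dioxide, and passes electrons to NAD and to ubiquinone. In fat cells it also supplies citrate, which leaves the mitochondrion and yields acetyl-CoA for fatty acid synthesis. NAD, whose precursor is niacin, is the electron acceptor of the isocitrate, 2-oxoglutarate and malate dehydrogenases.

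Values are MAS5 signals, the summary intensity of a probe set on a linear scale. The arrays had been scaled to 1 common trimmed mean (1500.01), and Spearman correlations between arrays were 0.941 to 0.975 within groups and 0.945 to 0.968 between them. Fat cell transcripts were bright throughout, with the adipokine Adipoq at 83886 to 103846 in NBC mice and 85821 to 108996 in placebo mice. NBC mice 5 and 11 stood apart in the 3' to 5' signal ratios of the control probe sets, a sign of RNA integrity. For pyruvate carboxylase, Pcx, mice 5 and 11 had ratios of 34.1 and 37.2, NBC mice 9 and 13 had 12.1 and 19, and placebo mice ranged from 16.8 to 19.5. NBC mouse 9 stood apart in skeletal muscle transcripts, which were high in the 3 other NBC mice. The main results are therefore also given without NBC mice 5 and 11 or without NBC mouse 9.

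The comparison asked which of these enzyme transcripts differed in the fat depot after oral NBC. Most member transcripts were slightly lower in NBC than in placebo mice, and none passed the adjusted threshold. Idh3a, the catalytic alpha subunit of NAD-dependent isocitrate dehydrogenase, had the lowest unadjusted p among the kept member probe sets, with a mean in NBC mice 0.783 times that in placebo mice. The transcripts of citrate synthase and mitochondrial malate dehydrogenase gave differences of opposite sign from different probe sets.

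After Benjamini-Hochberg adjustment of limma's p-values, 0 of the 17 kept member probe sets passed (smallest adjusted p = 0.778), against 0% of all kept probe sets. At an unadjusted p under 0.05, 1 of 17 was lower in NBC (5.88%, against 2.94% of all kept probe sets) and 0 were higher (3.28% of all). The values of the groups did not overlap for 3 of 17, all lower in NBC (17.6%, against 2.06% of all kept probe sets), and 0 were higher without overlap (1.79% of all). These were 2 probe sets of Idh3a and 1 of Idh3b. The log2 difference, NBC minus placebo, lay below 0 for 15 of 17 (88.2%, against 52.1% of all), with a median of -0.14 over the member probe sets and -0.010 over all. Over the brightest probe set of each gene, 7 of 9 lay below 0 and the median was -0.076. Among the 2430 kept probe sets at least as bright as the dimmest of these 9, 48.7% lay below 0, 3.5% were lower without overlap and 2.67% were lower at an unadjusted p under 0.05. The members' counts were 7, 2 and 1 of 9. Several probe sets are assigned to the same gene and the enzymes share a pathway, so these counts are not counts of independent events. Without NBC mice 5 and 11, all 17 lay below 0 (48.6% of all kept probe sets) and 8 had no overlap (8.92% of all). Without NBC mouse 9, 12 of 17 lay below 0 (52.1% of all) and 5 had no overlap (7.13% of all). In a bulk sample of fat, fewer cells of a type and less RNA per cell cannot be told apart.

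**Figure D1:**
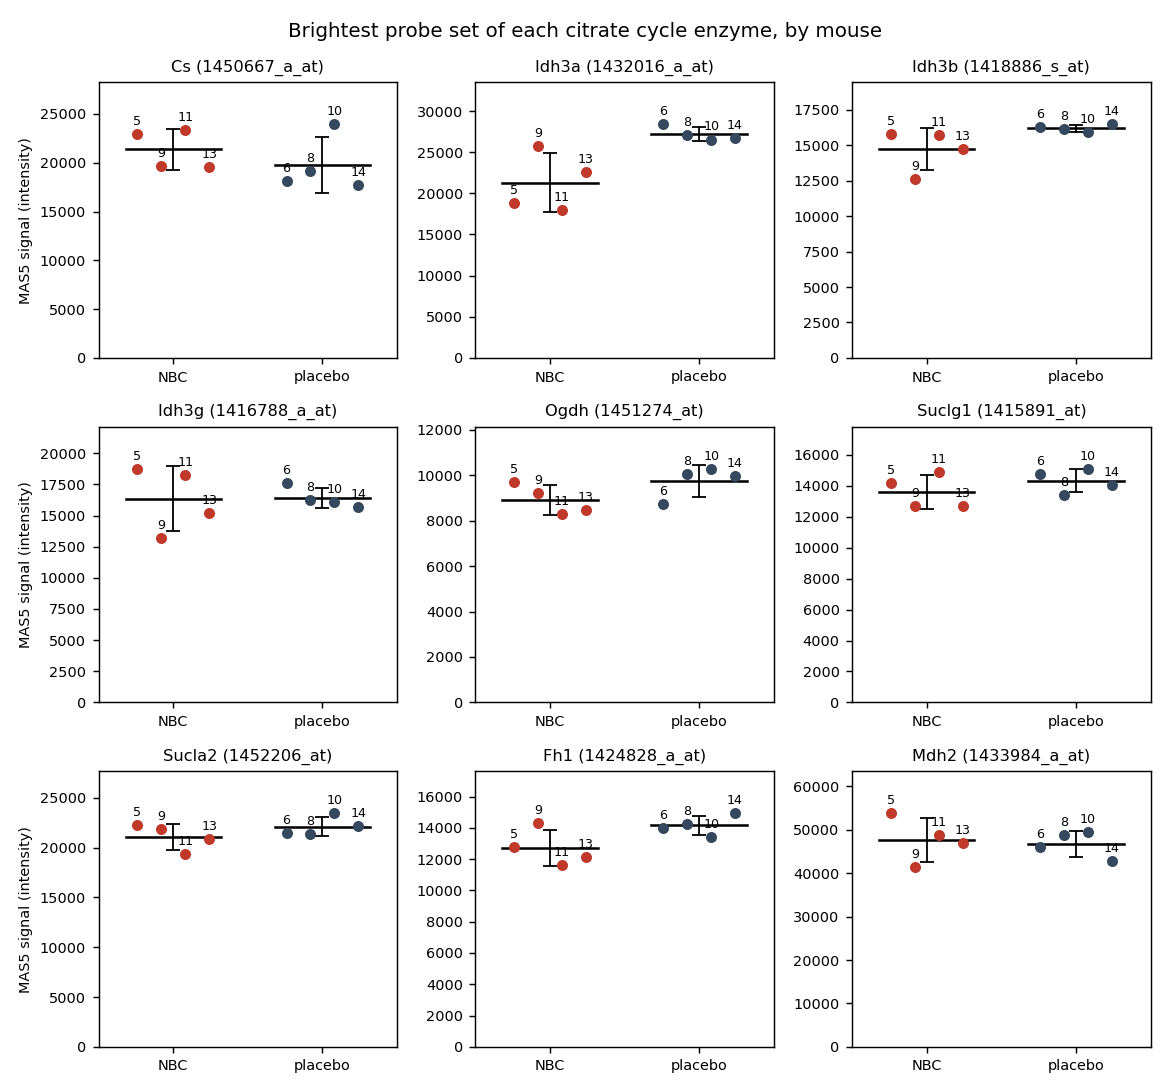
MAS5 signal (vertical axis, from 0) of the brightest probe set of each of the 9 genes in NBC mice (left) and placebo mice (right). Points are mice with their numbers, and lines with bars are group means ± SD (n = 4 each). Only Idh3a and Idh3b show no overlap. Relative to the mean, the SD is larger in NBC than in placebo mice for every gene but Cs. The gap is widest for Idh3a, Idh3b and Idh3g and slight for Ogdh.

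Cs encodes citrate synthase, which joins acetyl-CoA to oxaloacetate and opens the cycle. Its brightest probe set, 1450667_a_at, read 22920, 19657, 23391 and 19518 in NBC mice 5, 9, 11 and 13, against 18174, 19183, 23937 and 17715 in placebo mice 6, 8, 10 and 14. The groups overlapped, since placebo mouse 10 was the highest of all 8, and the log2 difference was 0.12 with a standard error (SE) of 0.14. The probe set 1422578_at averaged 15155 ± 1307 in NBC and 16620 ± 1694 in placebo mice (SD, n = 4 each), a difference of -0.13 (SE 0.12). The dimmest, 1422577_at, read 4482, 7714, 4992 and 6223 in NBC mice 5, 9, 11 and 13, against 6864, 6521, 7010 and 7588 in placebo mice 6, 8, 10 and 14 (-0.29, SE 0.17). In this probe set NBC mouse 9 was the highest of all, and NBC mice 5 and 11 were the lowest, while in the brightest one mice 5 and 11 were the highest NBC mice. The difference of 1422577_at was -0.17 without NBC mouse 5, -0.43 without NBC mouse 9 and -0.012 without NBC mice 5 and 11. The sign of the Cs difference therefore depended on the probe set, and no Cs probe set passed the threshold.

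The NAD-dependent isocitrate dehydrogenase oxidises isocitrate to 2-oxoglutarate and is assembled from alpha, beta and gamma subunits. Idh3a encodes the alpha subunit, which carries catalysis, and Idh3b and Idh3g encode the other subunits. The brightest Idh3a probe set, 1432016_a_at, read 18831, 25770, 17987 and 22575 in NBC mice 5, 9, 11 and 13. In placebo mice 6, 8, 10 and 14 it read 28385, 27088, 26542 and 26716. All NBC mice lay below all placebo mice, NBC mouse 9 by the smallest margin and NBC mice 5 and 11 by the largest. The log2 difference was -0.37 (SE 0.14; limma unadjusted p = 0.0258, adjusted p = 0.778). The spread was unequal, with an SD of 16.9% of the mean in NBC and 3.06% in placebo mice.

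The other Idh3a probe sets went the same way on the log2 scale, by different amounts. The probe set 1422501_s_at read 3422, 5050, 4620 and 4816 in NBC mice 5, 9, 11 and 13, against 5916, 5229, 6000 and 5151 in placebo mice 6, 8, 10 and 14 (-0.33, SE 0.15). Here too the groups did not overlap, and NBC mouse 5 stood lowest while mouse 11 lay near mice 9 and 13. Without NBC mouse 5 the difference was -0.20, and without NBC mice 5 and 11 it was -0.17. The probe set 1422500_at read 2688, 2998, 3379 and 2899 in NBC mice, against 3187, 3003, 3939 and 3141 in placebo mice, in the same order of mice (-0.15, SE 0.13). The groups overlapped because NBC mouse 11 lay above 3 of the placebo mice. The dim probe set 1447701_x_at read 691, 56.6, 994 and 990 in NBC mice, against 652, 634, 806 and 633 in placebo mice, again in that order. Its linear means were alike, 683 ± 441 in NBC and 681 ± 83.4 in placebo mice (SD, n = 4 each), and its log2 difference of -0.50 (SE 0.72) rested on NBC mouse 9, without which it was 0.36.

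**Figure D2:**
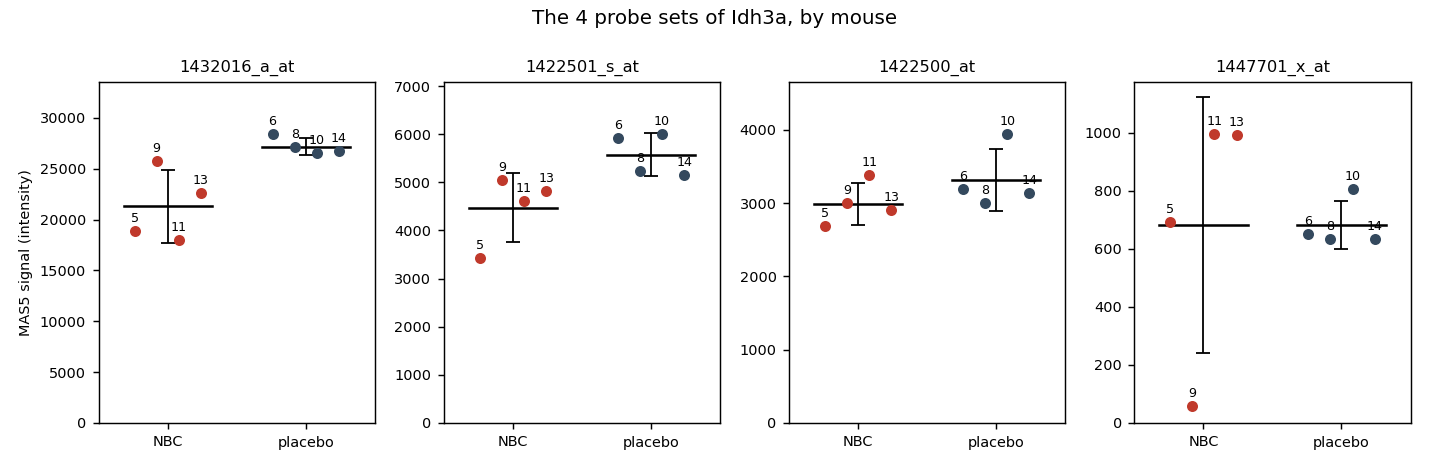
MAS5 signal (vertical axis, from 0) of the 4 Idh3a probe sets in NBC mice (left) and placebo mice (right). Points are mice with their numbers, and lines with bars are means ± SD (n = 4 each). The NBC mice lie below all placebo mice in 1432016_a_at and 1422501_s_at and overlap them in the other panels.

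The brightest Idh3a probe set is set here beside the control ratios and the muscle transcripts, mouse by mouse. Relative to the placebo mean, the brightest Idh3a probe set stood at -0.53 and -0.59 on the log2 scale in NBC mice 5 and 11, -0.27 in mouse 13 and -0.076 in mouse 9. The Gapdh 3' to 5' ratio was 1.47 and 1.28 in the same mice 5 and 11, 1.11 in mouse 13 and 0.844 in mouse 9, and placebo mice ranged from 0.924 to 1.04. Among NBC mice, those with the highest ratios had the lowest signals in this probe set, and mouse 9, with the lowest ratio, had the highest. This order did not hold in Idh3a 1422500_at, where mouse 11 was the highest NBC mouse (3379). Nor did it hold among placebo mice, where mouse 6 had the highest Gapdh ratio (1.04) and the highest signal in the brightest probe set (28385). The part of RNA integrity in the Idh3a difference was not tested, and without NBC mice 5 and 11 that difference was -0.17 (limma unadjusted p = 0.216). The summed signal of the 14 measured skeletal muscle markers was 163896, 175278 and 160490 in NBC mice 5, 11 and 13 and 19224 in mouse 9, against 6905 to 25300 in placebo mice. Without NBC mouse 9 the Idh3a difference was -0.46 (limma unadjusted p = 0.00573), and the part of muscle RNA was not tested.

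Idh3b and Idh3g differed less. The brightest Idh3b probe set, 1418886_s_at, read 15825, 12649, 15753 and 14750 in NBC mice 5, 9, 11 and 13, against 16265, 16134, 15918 and 16479 in placebo mice 6, 8, 10 and 14. All NBC mice lay lower, but mice 5 and 11 missed the lowest placebo mouse by little, and mouse 9 was far below (log2 difference -0.14, SE 0.11). Its second probe set, 1418885_a_at, averaged 9389 ± 1250 in NBC and 9567 ± 248 in placebo mice (SD, n = 4 each; -0.037, SE 0.13), with mouse 9 again the lowest at 7679. Without NBC mouse 9 the difference of the brightest probe set was -0.070 and that of the second was 0.056.

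The brightest Idh3g probe set, 1416788_a_at, read 18746, 13191, 18240 and 15239 in NBC mice 5, 9, 11 and 13, against 17600, 16228, 16070 and 15696 in placebo mice 6, 8, 10 and 14. NBC mice 5 and 11 stood above every placebo mouse and NBC mice 9 and 13 below every one, so that the means were close (log2 difference -0.017, SE 0.14). The other probe set, 1416789_at, averaged 15094 ± 511 in NBC and 16614 ± 887 in placebo mice (SD, n = 4 each; -0.14, SE 0.10), with all NBC mice below 3 of the placebo mice. The mice that were high in 1416788_a_at were the ones low in the brightest Idh3a probe set.

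Whether Idh3a differed beyond its partner subunits was tested on the log2 ratio of Idh3a to the mean of Idh3b and Idh3g in each mouse. The ratio was 0.13, 0.99, 0.085 and 0.59 in NBC mice 5, 9, 11 and 13, against 0.75, 0.74, 0.73 and 0.73 in placebo mice 6, 8, 10 and 14. Placebo mice were nearly identical, whereas NBC mice lay on both sides of them, mouse 9 above and the others below. The difference was -0.29 and its two-sided exact permutation p over the 70 splits of the 8 mice was 0.314, where 0.0286 is the smallest possible. Against the mean of all 8 other members, the ratio averaged 0.29 ± 0.32 in NBC and 0.60 ± 0.074 in placebo mice (SD, n = 4 each; difference -0.31, exact permutation p = 0.114). Adjusted over the 3 ratio tests made, these p-values were 0.314 and 0.171 (exact permutation). A difference particular to Idh3a was thus not shown, and without NBC mice 5 and 11 the first ratio differed by 0.055 and the second by -0.047.

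**Figure D3:**
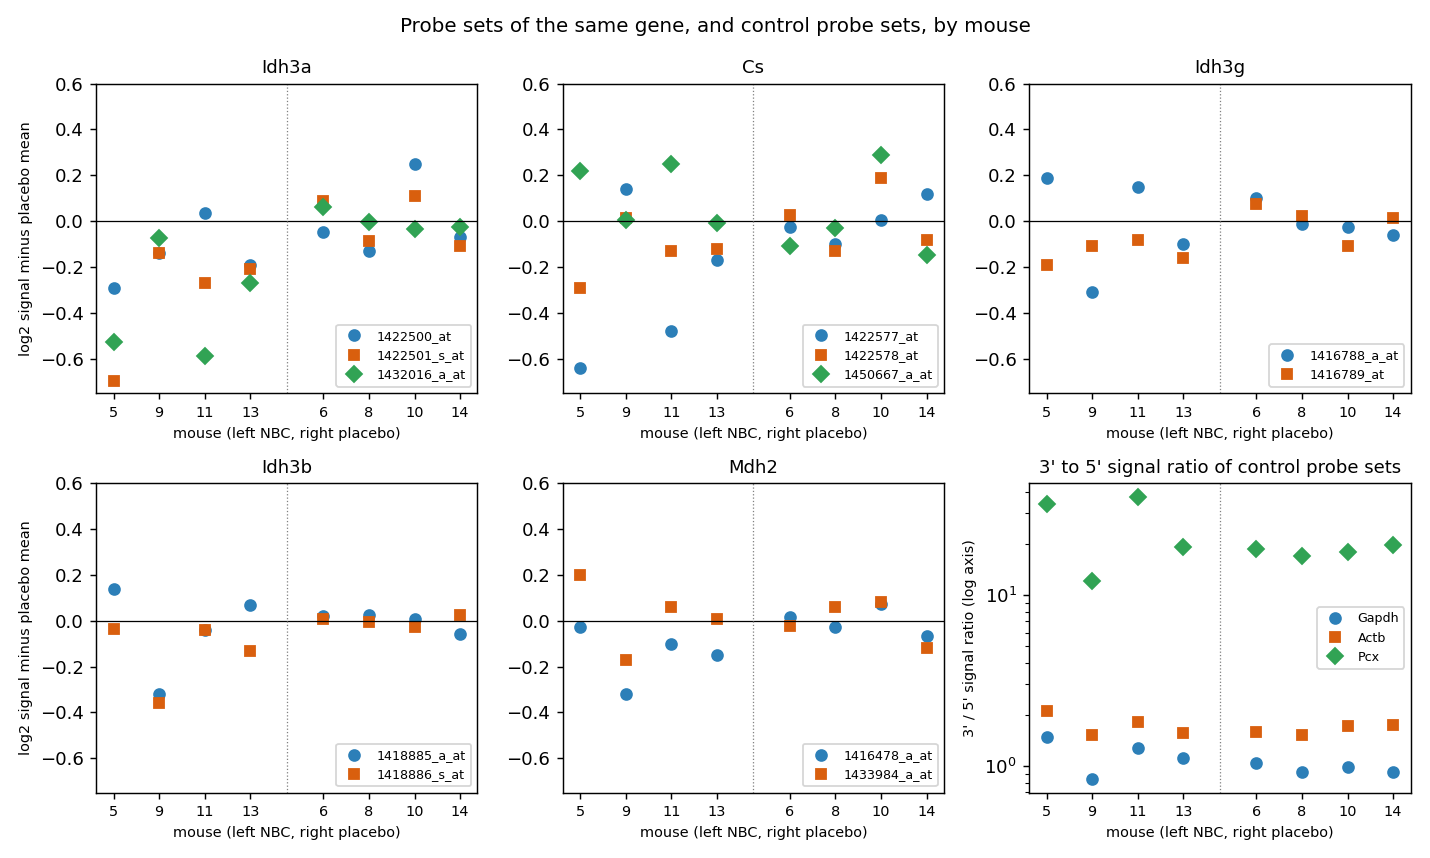
Log2 signal minus the placebo mean (vertical axis) for the probe sets of 5 genes in each mouse, NBC left and placebo right of the dotted line, and the 3' to 5' signal ratios of 3 control genes on a log axis. The dim Idh3a probe set 1447701_x_at is left out. In NBC mice 5 and 11, Idh3a 1432016_a_at (-0.53 and -0.59) and Cs 1422577_at (-0.64 and -0.48) are low, Cs 1450667_a_at (0.22 and 0.25) and Idh3g 1416788_a_at (0.19 and 0.15) are high, and the Pcx ratio is 34.1 and 37.2.

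The next step, from 2-oxoglutarate to succinyl-CoA, is made by the 2-oxoglutarate dehydrogenase complex, whose first component is encoded by Ogdh. Its bright probe set, 1451274_at, read 9714, 9212, 8296 and 8492 in NBC mice 5, 9, 11 and 13, against 8734, 10074, 10287 and 9952 in placebo mice 6, 8, 10 and 14. Placebo mouse 6 lay within the NBC range and the 3 others above it (log2 difference -0.13, SE 0.11). Dlst, which encodes the second component of the complex, read 8535 ± 470 in NBC and 9927 ± 489 in placebo mice with no overlap (1423710_at; SD, n = 4 each; -0.22, SE 0.10). Dld, the component that this complex shares with pyruvate dehydrogenase, differed by -0.30 (SE 0.12), with overlap. These bright probe sets of the 3 components had lower means in NBC, and each missed the adjusted threshold (limma adjusted p = 0.778 to 0.858). Dimmer probe sets of Ogdh (1445632_at, below the filter) and Dlst (1437775_at) had higher means in NBC. Another dimmer Dlst probe set, 1431011_at, had a lower mean in NBC (-0.21, SE 0.18).

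Succinyl-CoA synthetase turns succinyl-CoA into succinate and forms ATP or GTP. Suclg1 encodes the alpha subunit common to both forms, Sucla2 the beta subunit of the ATP-forming one and Suclg2 that of the GTP-forming one. Suclg1 (1415891_at) read 14198, 12685, 14888 and 12720 in NBC mice 5, 9, 11 and 13, against 14769, 13409, 15103 and 14079 in placebo mice 6, 8, 10 and 14 (log2 difference -0.076, SE 0.11). NBC mice 9 and 13 lay below every placebo mouse and mice 5 and 11 among them. Sucla2 (1452206_at) read 22292, 21846, 19362 and 20858 in NBC mice, against 21460, 21391, 23434 and 22131 in placebo mice, in the same order of mice (-0.069, SE 0.11). NBC mice 11 and 13 lay below every placebo mouse and mice 5 and 9 among them.

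Suclg2 (1435841_s_at) read 5159, 5598, 5047 and 4769 in NBC mice, against 6353, 5826, 6022 and 6094 in placebo mice, in the same order. The groups did not overlap, with a log2 difference of -0.24 (SE 0.10; limma unadjusted p = 0.0477, adjusted p = 0.778). The log2 ratio of Sucla2 to Suclg2 averaged 2.03 ± 0.097 in NBC and 1.86 ± 0.084 in placebo mice (SD, n = 4 each). NBC mice ranged from 1.93 to 2.12 and placebo mice from 1.75 to 1.96, so the groups overlapped by little. The difference was 0.17 with an exact permutation p of 0.0571 (0.171 adjusted over the 3 ratio tests), and a changed balance of the ATP-forming and GTP-forming subunits was not shown. As a ratio of different probe sets, its level carries no meaning beyond the comparison between mice.

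Fh1 encodes fumarase, which hydrates fumarate to malate. Its probe set, 1424828_a_at, read 12758, 14321, 11636 and 12152 in NBC mice 5, 9, 11 and 13, against 14014, 14274, 13432 and 14926 in placebo mice 6, 8, 10 and 14. NBC mice 5, 11 and 13 lay below all placebo mice and NBC mouse 9 above 3 of them (log2 difference -0.16, SE 0.11). Without NBC mouse 9 the difference was -0.22 (limma unadjusted p = 0.0831), and without NBC mice 5 and 11 it was -0.10. Only the brightest probe set of each gene was correlated with Idh3a. Of the 8 other members read in this way, Fh1 had the pattern most like Idh3a over the 8 arrays (Pearson r = 0.838). Cs had the most unlike one (r = -0.643). Both values are descriptions over mice of both groups. Another Cs probe set, 1422577_at, was instead low in NBC mice 5 and 11, as Idh3a was (-0.64 and -0.48 relative to the placebo mean).

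Mdh2 encodes the mitochondrial malate dehydrogenase, which regenerates oxaloacetate. The brightest probe set, 1433984_a_at, read 53767, 41493, 48700 and 46958 in NBC mice 5, 9, 11 and 13, against 45995, 48741, 49435 and 42843 in placebo mice 6, 8, 10 and 14. NBC mice held both the highest and the lowest value, and the log2 difference was 0.026 (SE 0.12). The other probe set, 1416478_a_at, read 36455, 29697, 34654 and 33473 in NBC mice, against 37602, 36522, 39102 and 35486 in placebo mice, in the same order of mice (-0.15, SE 0.11). Here NBC mice 9, 11 and 13 lay below all placebo mice and mouse 5 above placebo mouse 14. Mouse 9 was the lowest of the NBC mice in both probe sets.

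**Figure D4:**
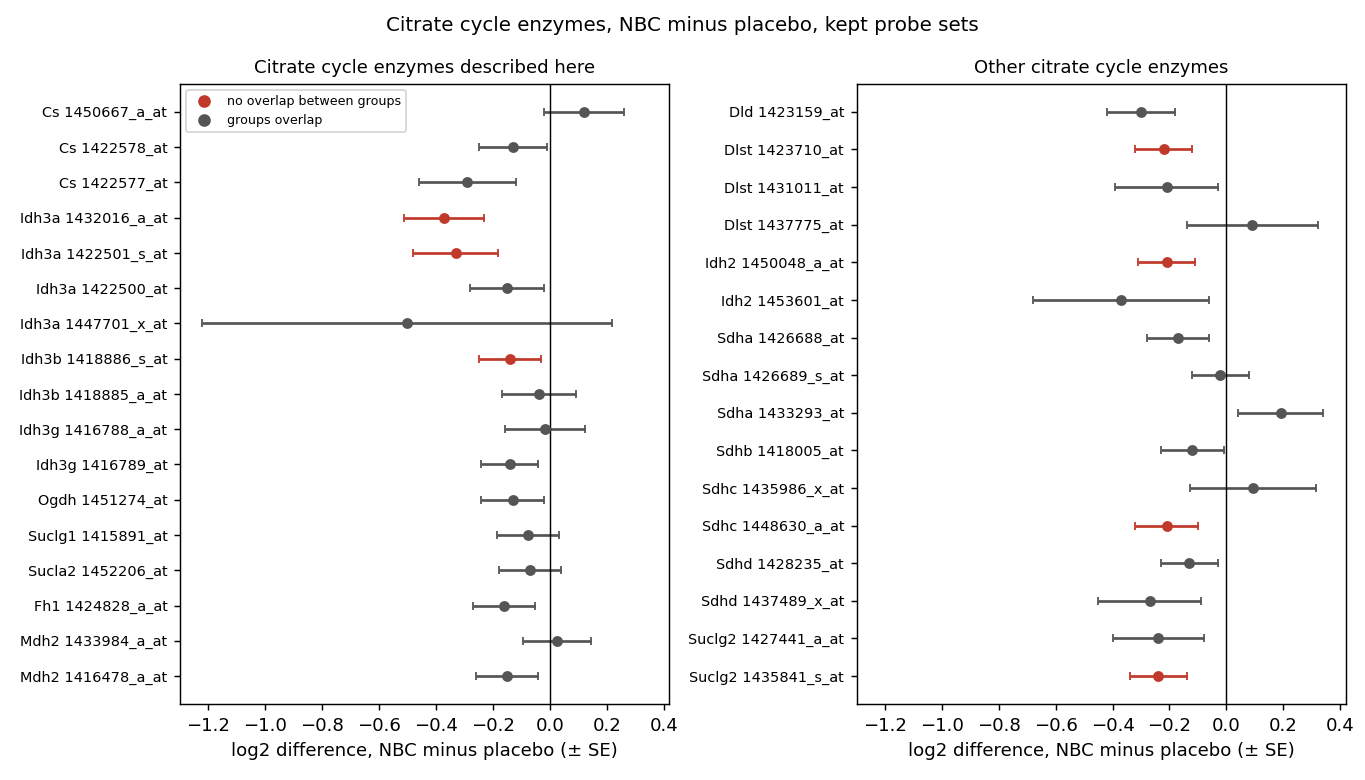
Log2 difference, NBC minus placebo (horizontal axis), with its moderated SE for the 17 kept probe sets of the 9 genes (left) and the 16 kept probe sets of 8 other citrate cycle genes (right). Red points mark probe sets whose groups do not overlap. On the left 15 of 17 points lie below 0, with Cs 1450667_a_at (0.12) and Mdh2 1433984_a_at (0.026) above it.

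The mice did not order the enzymes alike. Over the brightest probe sets of the 9 genes, NBC mouse 9 was the lowest of all 8 mice for 4 genes and NBC mouse 11 for 4, while placebo mouse 14 was the lowest for 1 (Cs). NBC mouse 13 was the lowest or second lowest for 6 genes and stood below the placebo mean for 8 of 9. NBC mouse 5 was the highest of all mice for 2 genes, Idh3g and Mdh2. Placebo mouse 10 was the highest for 4 genes. In these probe sets the low values in NBC mice were thus carried by different mice for different enzymes. Idh3a and Fh1 were low in mice 5, 11 and 13, and Idh3b, Idh3g, Suclg1 and Mdh2 were lowest in mouse 9. NBC mouse 13 also lay below every placebo mouse for Idh3b, Idh3g and Suclg1. The lowest mouse could change with the probe set of a gene. In Idh3g 1416789_at NBC mouse 5 was the lowest (14533) and mouse 9 read 15347. In Cs 1422577_at (4482) and 1422578_at (13536) NBC mouse 5 was the lowest of all. Mouse 9 stayed the lowest in the second kept probe sets of Idh3b and Mdh2.

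The 4 member probe sets below the filter are dim, and their values are listed for completeness. Sucla2 1447056_at read 131, 140, 201 and 210 in NBC mice 5, 9, 11 and 13, against 27.1, 52.1, 15.7 and 92.7 in placebo mice 6, 8, 10 and 14. The groups did not overlap and the log2 difference was 1.52 (SE 0.34; limma unadjusted p = 0.00198, adjusted p = 0.585 over all 45037 probe sets other than controls). It went against the bright Sucla2 probe set, and all its signals lay below the filter limit of 275. Sucla2 1430402_at ranged from 32.3 to 310 in NBC and from 22.5 to 246 in placebo mice, and Ogdh 1445632_at from 27.5 to 204 in NBC and from 23.4 to 110 in placebo mice. Idh3b 1441271_at ranged from 128 to 332 in NBC and from 68.4 to 174 in placebo mice. These last 3 overlapped between the groups.

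A further 8 genes of the cycle were measured. In these 8 the brightest probe set had a lower mean in NBC mice, with a median log2 difference of -0.21, and 0 of 8 passed the adjusted threshold. The log2 difference lay below 0 for 52.1% of all kept probe sets and 48.7% of the bright ones. The groups did not overlap for 4 (2.06% of all kept probe sets and 3.5% of the bright ones were lower without overlap), the 2-oxoglutarate dehydrogenase component Dlst, the NADP-dependent mitochondrial isocitrate dehydrogenase Idh2 (-0.21, SE 0.10), the succinate dehydrogenase subunit Sdhc (-0.21, SE 0.11) and Suclg2. The other succinate dehydrogenase subunits, which link the cycle to the respiratory chain, differed by -0.17 (Sdha, SE 0.11), -0.12 (Sdhb, SE 0.11) and -0.13 (Sdhd, SE 0.10), with overlap. A second bright Sdha probe set, 1426689_s_at, averaged 20712 in NBC and 20998 in placebo mice, a difference of only -0.021 (SE 0.10). Dimmer probe sets had the opposite sign for Sdha (1433293_at, 0.19), Sdhc (1435986_x_at, 0.093) and Dlst (1437775_at, 0.091). Other dimmer ones had the same sign, for Dlst (1431011_at, -0.21), Idh2 (1453601_at, -0.37), Sdhd (1437489_x_at, -0.27) and Suclg2 (1427441_a_at, -0.24). Without NBC mice 5 and 11 the same direction held for 8 of 8 (48.6% of all kept probe sets), and 4 had no overlap (8.92% of all). Without NBC mouse 9 it held for 8 of 8 (52.1% of all kept probe sets), and 7 had no overlap (7.13% of all).

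Genes around the cycle were read in 4 further lists. For comparison, 52.1% of all kept probe sets and 48.7% of the bright ones lay below 0. Of the genes for carbon entry, which include pyruvate dehydrogenase and pyruvate carboxylase, 7 of 8 measured lay below 0 (median -0.12) and 0 passed. The lowest unadjusted p was that of the malic enzyme Me2 (-0.30, SE 0.13). Of the genes for citrate export and the cytosolic counterparts of the cycle enzymes, 6 of 9 lay below 0 (median -0.062), with the lowest unadjusted p in the dicarboxylate carrier Slc25a10 (-0.20, SE 0.13). Of the respiratory chain and ATP synthase subunits, 15 of 18 lay below 0 (median -0.094; 52.1% of all kept probe sets), and 2 were lower without overlap (2.06% of all and 3.5% of the bright ones). Among 14 regulators of mitochondrial genes 10 lay below 0. The corepressor Nrip1 read 9804 ± 575 in NBC and 12920 ± 1446 in placebo mice with no overlap (1434384_at; SD, n = 4 each; -0.39, SE 0.12). The coactivator Ppargc1a differed by -0.35 (SE 0.18) and the nuclear receptor Esrra by -0.22 (SE 0.15), both with overlap. None of these genes passed the adjusted threshold (limma).

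Markers of the cell types in the depot moved as follows, and their part in the enzyme differences was not tested. For comparison, 10797 of the 22519 kept probe sets lay above 0 and 52.1% below it. All 14 measured skeletal muscle markers of 15 lay above 0, with the lowest unadjusted p in Pvalb (4.18, SE 0.93), and Myh2 was below the filter. Of the brown adipocyte markers 8 of 10 were measured, 4 on each side of 0, with lower means in NBC for Ucp1 (1228 ± 595 in NBC and 3260 ± 1242 in placebo mice) and Cidea (813 ± 92.8 in NBC and 1671 ± 374 in placebo mice; SD, n = 4 each), Dio2 and Zic1 below the filter, and sums of 8988 to 13670 in NBC and 9163 to 16062 in placebo mice. The 9 measured adipocyte markers of 12 all lay below 0, with a median difference of -0.056. Their sums were 556533 to 622063 in NBC and 556854 to 664427 in placebo mice. Of the 9, only the lipase Lipe was lower without overlap (-0.19, SE 0.11), as 2.06% of all kept probe sets were. The 9 measured fibroblast and progenitor markers of 10 lay above 0, with sums of 196922 to 224061 in NBC and 166904 to 186272 in placebo mice, which did not overlap. The largest parts of these sums, Col3a1 (mean 90998 in NBC mice) and Dcn (49056), each overlapped between the groups. Of the 9 markers 4 were higher without overlap (1.79% of all kept probe sets). The 10 macrophage markers lay above 0 with overlapping sums, 121652 to 209843 in NBC and 98298 to 146499 in placebo mice.

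The summed signals of the endothelial, lymphocyte and epithelial markers overlapped between the groups. The 7 endothelial markers had a median of 0.005 and sums of 18127 to 28449 in NBC and 20177 to 27238 in placebo mice. The 7 measured lymphocyte markers of 8 had a median of -0.63, with sums of 47751 to 70925 in NBC and 51566 to 66406 in placebo mice. Ighm made up most of each sum (means 56361 for NBC, 53707 for placebo), so the overlap says little about the other markers. NBC mice 11 and 13 lay below every placebo mouse for Cd3g, Cd2, Cd79a, Cd79b and Ms4a1. Their Cd79b signals were 186 and 32.1, where the lowest placebo signal was 778. For Cd3e only mouse 13 lay below. NBC mice 5 and 9 lay within or above the placebo range for all 7 markers. Of 6 epithelial markers 4 were below the filter, among them Cdh1, which read 82.1 to 124 in NBC and 130 to 316 in placebo mice without overlap, and the other 2 summed to 650 to 1253 in NBC and 384 to 998 in placebo mice.

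Over the 8 arrays, 5 non-member genes had the pattern most like the brightest Idh3a probe set among 11653 genes. They were Haghl (Pearson r = 0.979), Etfdh (0.974), Dctn5 (0.973), Elmo2 (0.970) and Golm1 (0.964), each given as a description over 8 arrays in 2 groups. Etfdh encodes the flavoprotein dehydrogenase that passes electrons from fatty acid oxidation to ubiquinone. It read 6032, 8287, 6374 and 7409 in NBC mice 5, 9, 11 and 13, against 8683, 8106, 8319 and 8542 in placebo mice 6, 8, 10 and 14. As with Idh3a, mice 5 and 11 were the lowest and mouse 13 was next, while mouse 9 lay within the placebo range, which it did not for Idh3a.

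The start regions of the members were searched for the letters of motifs known from nuclear genes of mitochondrial proteins. The 250 bases before each listed start were taken from RefSeq sequences of GRCm38.p6 and read on both strands, which gave 13 windows for 8 of the 9 members (all but Idh3a), 6 of them at listed starts of Ogdh. The NRF1 motif (GCGCA, any base, then GCGC) was in 1 member window, that of Sucla2, and in 3.74% of all 32851 windows. The GABP motif CCGGAAG (6.91% of all windows) and the YY1 motif AANATGGCG (1.12%) were both in the window of Idh3g and in no other member window. The ERR motif TNAAGGTCA (1.14%) was in 0 member windows. The matched windows are printed because Idh3g and Sucla2 are the members in which these letters occurred, with matches in capitals, and a match describes letters only. In Idh3g the matches begin 130 (YY1) and 104 (GABP) bases before the start, and in Sucla2 the match begins 17 bases before it.
Idh3g, chrX:73786898-73787147, minus strand: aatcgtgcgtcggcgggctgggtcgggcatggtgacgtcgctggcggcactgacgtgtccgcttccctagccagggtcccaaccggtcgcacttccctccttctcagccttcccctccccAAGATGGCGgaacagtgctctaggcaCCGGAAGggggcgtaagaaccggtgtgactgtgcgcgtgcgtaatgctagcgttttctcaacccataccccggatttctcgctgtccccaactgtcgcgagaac
Sucla2, chr14:73552536-73552785, plus strand: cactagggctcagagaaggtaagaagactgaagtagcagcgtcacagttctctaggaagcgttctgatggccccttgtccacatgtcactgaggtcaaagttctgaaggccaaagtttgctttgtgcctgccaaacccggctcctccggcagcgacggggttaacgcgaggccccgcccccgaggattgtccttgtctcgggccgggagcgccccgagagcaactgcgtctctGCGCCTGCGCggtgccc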

How the data were processed

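The deposited values are signal intensities on a linear scale, 1 per probe set and array, and the submitters' processing notes name MAS5. Its version and any batches are not given in the labels. The tests used log2(signal + 26), with 26 being the rounded 10th percentile of all values (26.5), which understates changes of dim probe sets. Of 45101 probe sets, 64 controls were not tested. Those with a mean log2 value at or above the median of the rest (signal 275) were kept. Genes were named through the platform annotation (34945 probe sets with 1 gene, 932 with several, 9160 with none) and 0 symbols changed through Entrez identifiers. A gene was represented by its brightest kept probe set.

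NBC was compared with placebo with limma 3.58.1 in R 4.3.3 (lmFit, eBayes, no covariate), adjusted by Benjamini-Hochberg over the 22519 kept probe sets at 0.05. The fit was tested on simulated arrays. Log2 ratios were compared with two-sided exact permutation tests (SciPy 1.17.1). Each array is labelled as a mouse of its own, and the groups share no number. No pair of arrays shared more than 0.0776% of signals. The number of arrays limits the precision.

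The members, lists and tests were chosen with earlier results of these data known. The rule for named genes took all member probe sets, the other citrate cycle genes, up to 3 genes of lowest p per further list, and the 5 genes most like Idh3a. Other genes named were chosen after their values were seen. Alternatives were other pseudocounts, filters, normalizations and spread estimates, the mean of probe sets, and leaving out each mouse.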

Additional observations from a re-analysis of the deposited data

Results flagged for a closer look

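Among 48 groups of 4 values examined (21 probe sets and 3 ratios in each group of mice), 2 held a mouse far from the other 3, where chance gives about 1 in 20. The dim Idh3b probe set 1441271_at read 68.4 in placebo mouse 8, against 163 to 174 in the other placebo mice. The dim Idh3a probe set 1447701_x_at read 806 in placebo mouse 10, against 633 to 652 in the other placebo mice.

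The control probe sets, which entered no test, had 3' to 5' signal ratios above the placebo range in some NBC mice. For Gapdh, NBC mice 5, 11 and 13 had 1.47, 1.28 and 1.11, and placebo mice ranged from 0.924 to 1.04. For beta-actin, Actb, NBC mice 5 and 11 had 2.1 and 1.82, and the placebo range was 1.51 to 1.74. For Pcx they had 34.1 and 37.2, and the placebo range was 16.8 to 19.5. The part of these ratios in the enzyme differences was not tested.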

How the results depend on the processing

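With 1 mouse left out, the calls over all probe sets ranged from 0 to 18 (18 without NBC mouse 9) and those among member probe sets stayed at 0. Member probe sets lower at an unadjusted p under 0.05 then ranged from 0 to 3 (2.09% to 7.28% of all kept probe sets). Those lower without overlap ranged from 3 to 5 (2.99% to 7.13% of all). Those higher without overlap ranged from 0 to 1, and the share of all was taken in the main setting only (1.79%). The lower ones numbered 0 with no filter (2.52% of all), 2 with the filter at the 75th percentile (4.47%), 2 with median centring (3.13%), 2 with an intensity trend (3.31%) and 2 with array weights (5.26%), against 2.94% of all in the main setting. With no filter 1 dim probe set of Sucla2 was higher at an unadjusted p under 0.05 (2.8% of all) and had no overlap. Without NBC mice 5 and 11, an alternative chosen after seeing the data, 0 were lower at that p (3.41% of all), 8 had no overlap (8.92% of all), and the ratio of Idh3a to Idh3b and Idh3g turned to 0.055. There Mdh2 1433984_a_at turned to -0.081 and Cs 1450667_a_at to -0.002. Idh3g 1416788_a_at turned to 0.037 with array weights. With 1 mouse left out it ranged from -0.087 to 0.082, Idh3b 1418885_a_at from -0.096 to 0.056, Idh3a 1447701_x_at from -0.84 to 0.36 and Mdh2 1433984_a_at from -0.033 to 0.091. The other kept member probe sets kept their sign in all alternatives in which they were tested, and the causes of these changes were not tested. The ratio tests stayed above 0.05 in all alternatives run. With 3 against 4 mice the exact test cannot go below 0.0571, so leaving out a mouse says nothing of their stability. No paired analysis was possible because the groups share no mouse number. The 4 arrays a group limit all calls, and dim probe sets are least certain.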
